A study of Mus musculus with 30 samples.

Results

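The 41 genes described here act in DNA replication, in the step from G1 into S phase, and in mitosis. They were chosen by name and found in a table of 54532 mouse genes by their Ensembl identifiers. All 41 had reads, and 36 of them had enough to be tested. By role, 10 belong to replication, 10 regulate G1 and S phase, 17 act in mitosis, and 4 (Mki67, Top2a, Hmgb2 and Stmn1) are chromatin or cytoskeleton genes that dividing cells express strongly.

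The cells were dendritic cells grown with GM-CSF from mouse bone marrow of tibia and femur. KO cells came from mice deficient in Nlrx1, a mitochondrial member of the NOD-like receptor family, and WT cells from wild-type mice. Each genotype was sampled unchallenged at 0 h, and then 3, 6, 9 and 12 h into exposure to living conidia (spores) of the mould Aspergillus fumigatus, strain AF29, which gives 10 groups of 3 libraries. The labels leave out the strain, age and sex of the mice and how Nlrx1 was lost. Every library after 0 h had received conidia, so that the effect of the fungus and that of further hours in culture cannot be told apart. Whether the replicates stem from different mice or from wells of 1 culture is unstated, so a p-value measures no more than how these libraries scatter, and part of that scatter may be technical.

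The cell cycle is driven by cyclin-dependent kinases, each active only when bound to a cyclin. D-type cyclins with Cdk4 release E2F transcription factors from the retinoblastoma protein, and E2F then drives genes of S phase, among them the MCM helicase that opens replication origins. Cyclins A and B with Cdk1 later bring the cell into mitosis, whose genes are switched on by a separate promoter code, and inhibitors such as p21 (Cdkn1a) and p27 (Cdkn1b) hold the kinases in check. Dendritic cells in GM-CSF cultures arise from dividing myeloid precursors and stop dividing as they mature.

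Levels are counts per 1000000 counts of the library (CPM), and log2 changes are from edgeR's quasi-likelihood fit with their standard error, so that every rise, fall or difference written as a value ± an error is on the log2 scale. A gene was called where its p-value, adjusted by Benjamini-Hochberg over the 12393 genes tested, was under 0.05. The checks on the libraries are these. Totals were 1722384 to 3509429 counts per library. The WT libraries at 9 h stood apart from each other: a chi-square of counts between replicates, per degree of freedom, was 10.1 for replicates 1 and 3 and 5.83 for 2 and 3, against 4.73 for 1 and 2 and 2.63 to 4.82 in the other groups. Counts of calls, gene calls and replication medians that rest on them are given with and without each of these libraries. Nlrx1 itself had 0 to 14 counts in KO libraries and 13 to 46 in WT libraries, and was lower in KO over all times by a log2 change of -1.87 ± 0.28 (adjusted p = 1.711e-05). Of the dendritic cell markers, Itgax lay at 1258 to 1409 CPM in KO and at 1164 to 1333 CPM in WT, whereas Cd209a and Flt3 had 20 counts each over the 15 KO libraries and 6 and 26 over the 15 WT libraries. Calls of dendritic cell markers between genotypes went both ways at single times. KO was higher for Itgax at 9 h (log2 change 0.15 ± 0.03, adjusted p = 0.00892). It was also higher for H2-Ab1 at 0 h (0.19 ± 0.06, 0.04328) and 12 h (0.21 ± 0.06, 0.04389), and lower for Ccr7 at 6 h (-0.93 ± 0.22, 0.009544). H2-Aa, Cd74 and Zbtb46 were not called between genotypes at any single time. Fitted levels of Itgax, H2-Ab1 and H2-Aa were higher in KO at every time, mostly without a call. Their log2 changes were 0.08 to 0.15, 0.12 to 0.21 and 0.06 to 0.19. Ccr7 was lower in KO from 0 to 9 h, by -0.16 to -0.93, and Cd74 and Zbtb46 changed sides. The cultures also differed between genotypes in markers of other cells. Over all times KO was lower for 5 of 6 macrophage markers and higher for Mertk, with a summed level of 1344 to 2069 CPM in KO and 1789 to 2801 CPM in WT. It was lower for all 7 granulocyte markers that could be tested, at 277 to 694 CPM in KO and 473 to 1157 CPM in WT summed over the 11 listed. Of these, Elane was at 0 in every KO library, and it had too few reads over all libraries to be tested between genotypes. Kit and Gata2, 2 of 3 markers of early progenitors, were lower too, with 13.7 to 27.9 CPM in KO and 26.3 to 45.9 CPM in WT for the 3 together. Summed markers of B cells, of T and NK cells, of erythroid cells and of mast cells and basophils were near 0, the highest being 7.58 CPM in KO and 6.76 CPM in WT, both for mast cells and basophils.

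Replication genes are known for E2F sites in their promoters and mitosis genes for the CHR element and CCAAT boxes, and 4 promoters are shown so that these elements can be seen. The windows, from RefSeq on GRCm38.p6, run 250 bases up to the transcription start, read 5′ to 3′ on the strand of the gene. Mki67 (chr7:135716380-135716629, minus strand) and Cdk1 (chr10:69352913-69353162, minus strand) hold CHR matches, Mcm6 (chr1:128359706-128359955, minus strand) E2F matches, and Cdk4 (chr10:127063285-127063534, plus strand) neither. Capitals mark the motifs searched on both strands: the E2F sites TTTCCCGC, TTTGGCGC, TTTCGCGC and TTTGCCGC, the CHR (cell cycle genes homology region) as TTTGAA or TTTAAA, the CCAAT box, the E-box CACGTG and the cAMP response element TGACGTCA.
Mki67: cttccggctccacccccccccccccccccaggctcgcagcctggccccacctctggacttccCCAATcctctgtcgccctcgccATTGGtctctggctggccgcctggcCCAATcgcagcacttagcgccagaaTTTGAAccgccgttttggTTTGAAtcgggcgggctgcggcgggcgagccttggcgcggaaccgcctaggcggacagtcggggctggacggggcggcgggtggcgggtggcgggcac
Cdk1: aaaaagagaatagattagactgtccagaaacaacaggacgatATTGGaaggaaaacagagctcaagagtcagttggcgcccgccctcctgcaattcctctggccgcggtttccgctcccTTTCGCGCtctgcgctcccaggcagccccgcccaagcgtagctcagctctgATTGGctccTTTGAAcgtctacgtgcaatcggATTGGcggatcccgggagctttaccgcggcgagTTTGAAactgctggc
Mcm6: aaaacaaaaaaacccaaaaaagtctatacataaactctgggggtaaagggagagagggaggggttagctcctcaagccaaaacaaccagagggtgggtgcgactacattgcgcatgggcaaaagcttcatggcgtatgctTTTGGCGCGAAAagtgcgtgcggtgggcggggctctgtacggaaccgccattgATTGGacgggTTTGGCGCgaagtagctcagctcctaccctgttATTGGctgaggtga
Cdk4: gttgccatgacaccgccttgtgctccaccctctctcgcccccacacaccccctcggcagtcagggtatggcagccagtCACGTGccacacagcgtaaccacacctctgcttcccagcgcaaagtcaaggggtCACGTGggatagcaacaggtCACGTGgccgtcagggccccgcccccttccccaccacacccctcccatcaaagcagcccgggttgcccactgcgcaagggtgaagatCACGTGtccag
Mki67, whose protein coats mitotic chromosomes, has 2 CHR matches 116 and 98 bases before the start and 3 CCAAT boxes. Cdk1, the kinase of mitotic entry, has 2 CHR matches at 71 and 15 bases before the start, 3 CCAAT boxes and 1 E2F match. Mcm6, a subunit of the MCM helicase, has 3 E2F matches, a pair of which overlap in TTTGGCGCGAAA, 2 CCAAT boxes and no CHR match. Cdk4, the kinase partner of D-type cyclins, has 4 E-boxes, the sequence that Myc and Max bind as a dimer, and none of the other motifs.

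RefSeq windows of 300 bases (250 before the start and 50 from it on) were at hand for 33 of the 41 genes. An E2F match was present in 4 of 9 promoters of replication genes (44.4%), in 1 of 7 of the G1 and S phase regulators (14.3%) and in 1 of 14 of mitosis genes (7.14%), against 2.32% of 27025 genes. A CHR match stood in 3 of 9 replication promoters (33.3%) and in 12 of 14 mitosis promoters (85.7%), against 27.8% of all genes. CCAAT boxes were in 8 of 9 replication (88.9%) and 12 of 14 mitosis promoters (85.7%), against 37.9% of all genes. E-boxes and cAMP response elements were in 2 promoters of the 33 each (6.06%), against 7.24% and 1.88% of all genes. A match of these letters does not show that a factor binds there. Not in the table were Mcm4, Ccnd1, Ccnd2, Ccne2, Ccna2, Aurkb, Tpx2 and Stmn1.

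**Figure D1:**
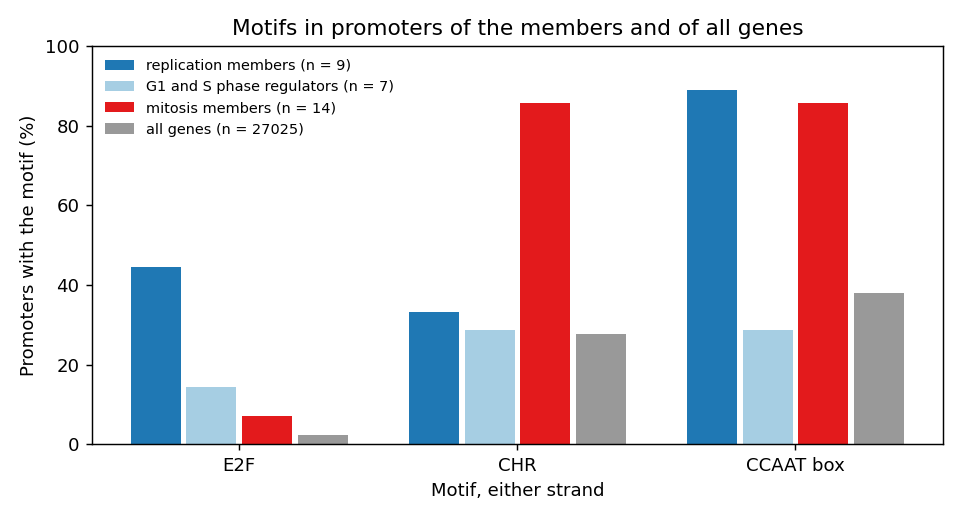
Share of promoters, in percent, that hold an E2F, CHR or CCAAT match on either strand, for replication genes (n = 9), G1 and S phase regulators (n = 7), mitosis genes (n = 14) and all genes (n = 27025). E2F matches were in 44.4% of replication promoters and 7.14% of mitosis promoters, CHR matches in 33.3% and 85.7%.

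The levels of the 41 genes spanned a wide range, and the drivers of mitosis were at its low end. Per kilobase of exon and averaged over the 30 libraries, the p21 gene Cdkn1a was highest with 54.6 CPM per kb. It was followed by Pcna, the sliding clamp of DNA polymerase, at 32.3 and by Cdk4 at 14.9 CPM per kb. The cyclin D2 gene Ccnd2 reached 12.4, Mki67 9.70, the chromatin gene Hmgb2 8.95, Mcm3 7.58 and the cyclin D1 gene Ccnd1 7.12 CPM per kb. The spindle checkpoint kinase Bub1b had 6.49 CPM per kb, whereas its relative Bub1 came last of all with 0.141 CPM per kb.

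The 5 genes with too few reads for a test were all mitotic. Bub1 had 49 counts in all 30 libraries together and none in 20 of them, the anaphase activator Cdc20 had 57 counts with 14 libraries at 0, and the cyclin B2 gene Ccnb2 had 58 with 19 at 0. The mitotic kinase genes Plk1 and Aurka had 84 and 189 counts, with 13 libraries and 1 library at 0. Among the mitosis genes that were tested, total counts ran from 169 for the spindle motor gene Kif11, with 8 libraries at 0, to 2113 for Bub1b. Changes in mitotic regulators could thus be read only where they were large. In these bulk libraries fewer dividing cells and less RNA per cell cannot be told apart.

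At most 5 of the 36 genes were called at any time after the conidia. In KO cells none of the 36 was called at 3 h against 0 h (1.22% of all genes were), with 10 at an unadjusted p under 0.05 and none by DESeq2. At 6 h 4 were called (11.1%, against 5.91% of all genes), at 9 h 5 (13.9%, against 10.9%) and at 12 h 3 (8.33%, against 14.7%). In WT cells none was called at 3 h (1.02% of all genes), with 3 at an unadjusted p under 0.05 and none by DESeq2. At 6 h 1 was called (2.78%, against 5.96% of all genes), at 9 h 3 (8.33%, against 10.4%) and at 12 h 5 (13.9%, against 18.1%). The share was above that of all genes in KO at 6 and 9 h and below it in the other comparisons with 0 h. With any 1 of the WT 9 h libraries left out, 2 genes were called in WT at 9 h, in place of 3. The comparisons of a genotype share its 3 libraries at 0 h. The authors' deposited tables list 10 changes of the 41 genes, 3 of Mki67, 5 of Cdkn1a, 1 of Ccnd2 and 1 of Top2a, and none of the other calls described here.

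**Figure D2:**
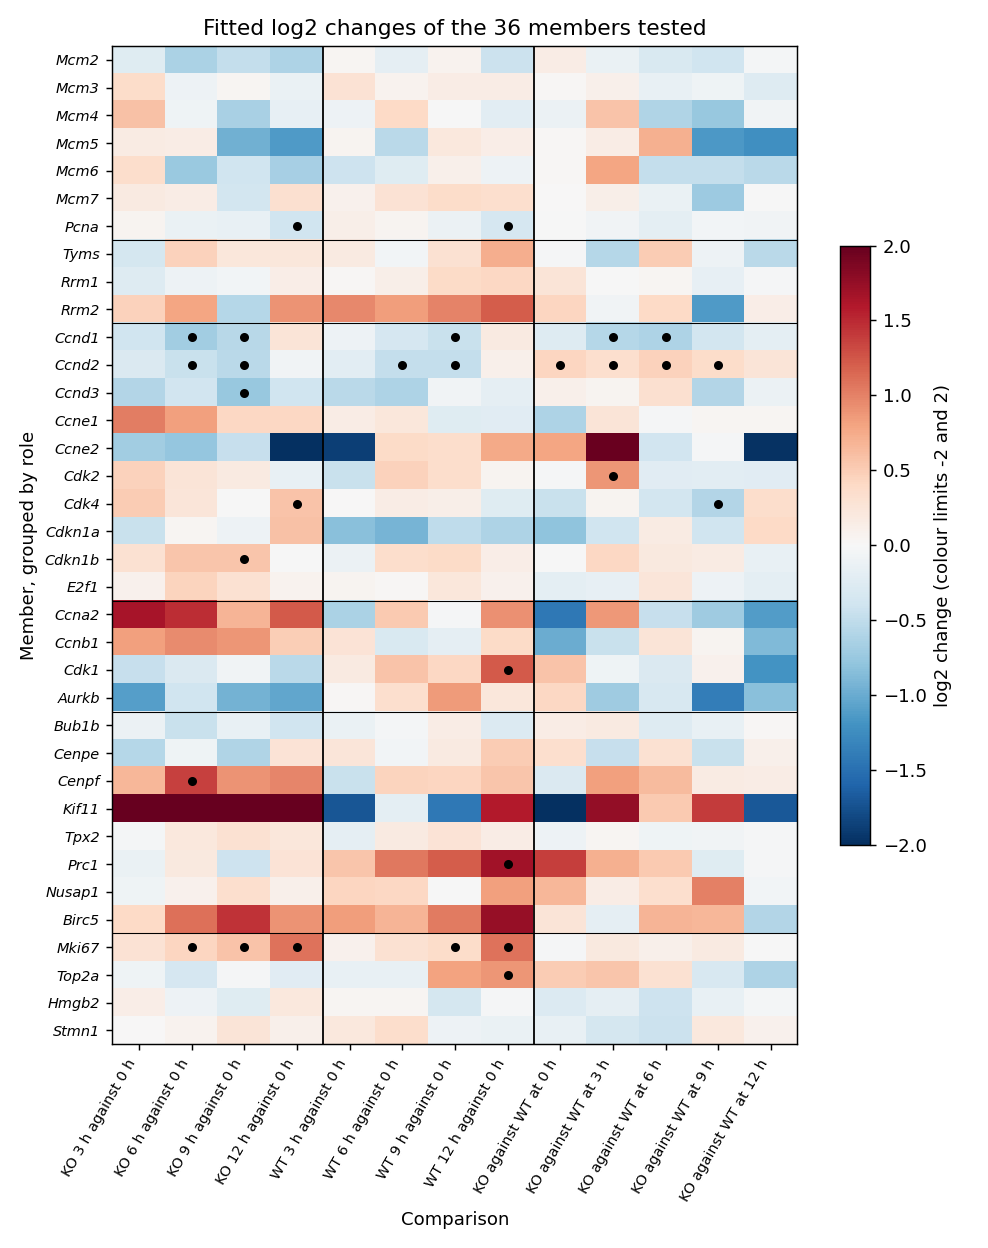
Fitted log2 changes of the 36 genes tested, grouped by role from replication at the top to proliferation-associated genes at the bottom, with red for higher and blue for lower in the group named first and black dots where the adjusted p was under 0.05. Dots gather on Mki67, Ccnd1 and Ccnd2, while most replication and mitosis genes carry none; the deep colours of Kif11 and Ccne2 rest on a few counts.

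At 12 h the smallest adjusted p-values against 0 h among the 41 genes were those of Mki67 (chr7:135689784-135716361, minus strand), which encodes the proliferation marker Ki-67. In KO cells it had 71.6, 66.7 and 71.5 CPM at 0 h, then 96.6, 76.2 and 84.9 at 3 h, then 94.7, 96.6 and 91.1 at 6 h, then 104, 104 and 104 at 9 h and lastly 139, 169 and 137 at 12 h. In WT cells the values were 71.7, 82.6 and 57.7 CPM at 0 h, then 72.3, 77.8 and 74.6 at 3 h, then 90.8, 85.3 and 86.6 at 6 h, then 96.2, 89.9 and 89.0 at 9 h and lastly 162, 149 and 137 at 12 h. Each library at 12 h was above each library of the earlier times in both genotypes.

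Mki67 averaged 148 ± 17.8 CPM in KO cells at 12 h and 69.9 ± 2.81 at 0 h (SD, n = 3 each), a log2 change of 1.09 ± 0.10 (adjusted p = 4.373e-09). In WT cells it averaged 149 ± 12.4 CPM at 12 h and 70.7 ± 12.5 at 0 h, a log2 change of 1.08 ± 0.10 (adjusted p = 3.241e-09). Both 12 h calls, and that at 9 h in KO, held without any single library and under every alternative tried. Before 12 h the rise was smaller, at 0.43 ± 0.10 (adjusted p = 0.009267) and 0.57 ± 0.10 (adjusted p = 0.0002062) in KO cells at 6 and 9 h and 0.37 ± 0.10 (adjusted p = 0.01287) in WT cells at 9 h. The KO call at 6 h was lost without KO 0 h replicate 2 (adjusted p = 0.06512) or with no filter on low counts (0.1645). The WT call at 9 h was lost without WT 0 h replicate 3 (0.1231) or WT 9 h replicate 1 (0.05372), or with the 2 groups fitted alone (0.07489), and held without WT 9 h replicate 2 or 3. In the authors' deposited tables the log2 change of Mki67 was 1.09 at 12 h in KO (adjusted p = 8.053e-10), 0.58 at 9 h in KO (0.00714) and 1.08 at 12 h in WT (2.885e-09).

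**Figure D3:**
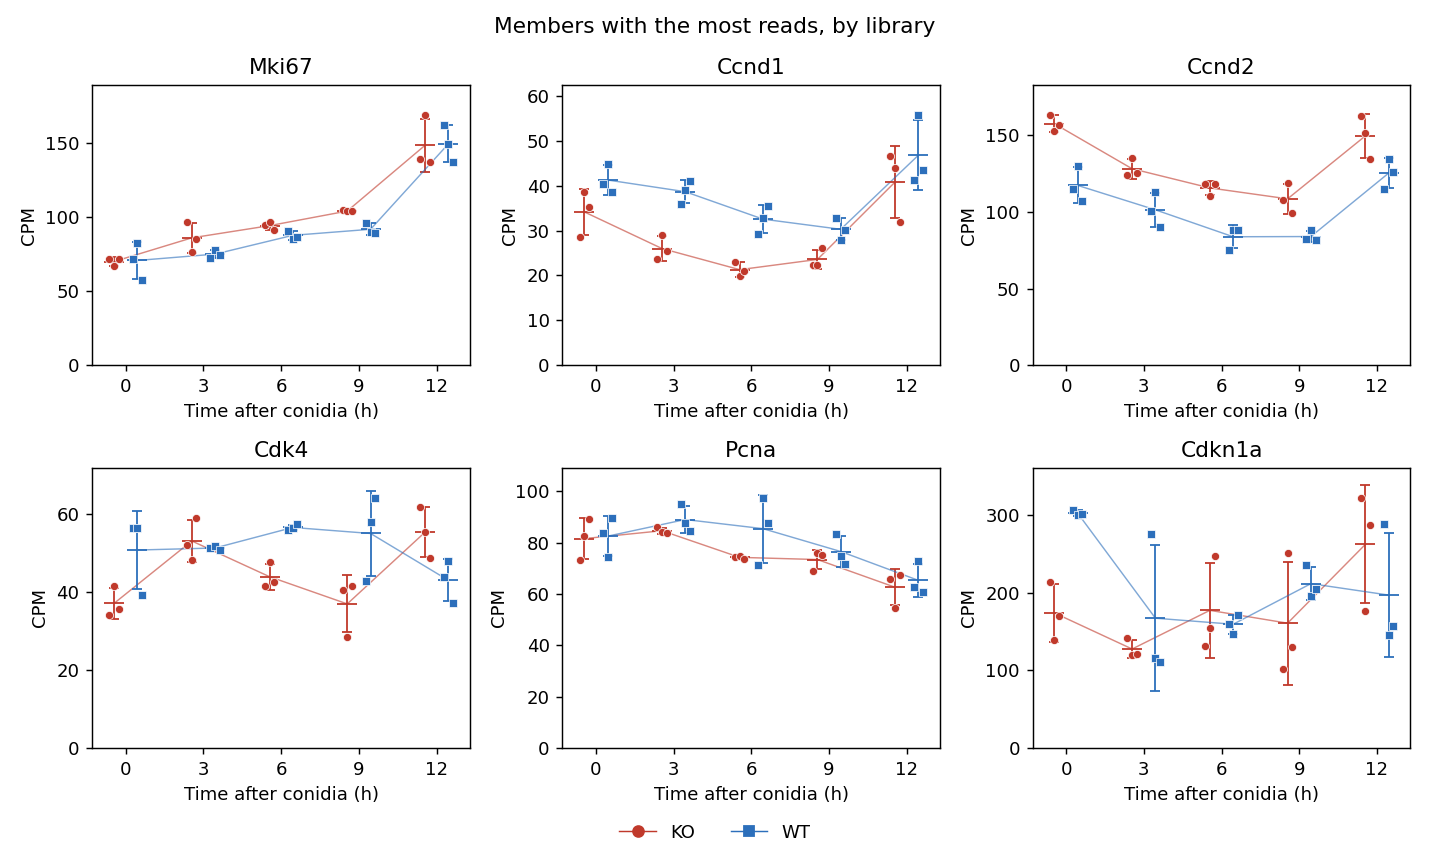
CPM per library of Mki67, Ccnd1, Ccnd2, Cdk4, Pcna and Cdkn1a by hours after conidia (0, 3, 6, 9 and 12 h), with KO as circles at the left and WT as squares at the right of each time, and with group means (horizontal bars) and SDs (vertical bars). Mki67 is highest at 12 h in both genotypes, Ccnd1 and Ccnd2 dip at 6 and 9 h, and Cdkn1a scatters widely within groups.

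Of the 3 other proliferation-associated genes, Top2a was called over time, in WT cells at 12 h. Top2a, which untangles DNA in dividing cells, had 24.4, 37.5 and 29.9 CPM in WT cells at 12 h, against 15.5, 15.1 and 19.1 at 0 h, and rose by 0.88 ± 0.30 on the log2 scale (adjusted p = 0.04264). That call was lost without any 1 of 5 libraries (each at WT 0 h, and WT 12 h replicates 2 and 3), with an adjusted p of 0.06001 to 0.1769, and held without WT 12 h replicate 1; it was also lost with no filter (0.1296). In the authors' deposited table it is listed at 0.88 (adjusted p = 0.04259). KO cells had 26.6, 15.3 and 18.6 CPM of Top2a at 12 h, against 16.5, 25.9 and 27.4 at 0 h, a log2 change of -0.23 ± 0.31 (adjusted p = 0.7104); the test of the difference between genotypes over time gave an adjusted p of 0.4022. Hmgb2 stayed between 17.4 and 33.6 CPM over all libraries and Stmn1, a regulator of microtubules, between 5.37 and 14.1 CPM, and neither was called at any time against 0 h.

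The D-type cyclins, which couple growth factor signals to Cdk4 and Cdk6, were lower at 6 and 9 h: Ccnd2 fell at both times in both genotypes, Ccnd1 at both in KO and at 9 h in WT, and Ccnd3 at 9 h in KO. None of them was called at 12 h. Ccnd2 (chr6:127125162-127152193, minus strand) had 163, 153 and 157 CPM in KO cells at 0 h, then 124, 135 and 125 at 3 h, then 118, 110.3 and 118 at 6 h, then 108, 119 and 99.1 at 9 h and lastly 163, 151 and 135 at 12 h. WT cells had 115, 130.1 and 107 CPM at 0 h, then 101, 113 and 90.5 at 3 h, then 75.1, 88.4 and 87.9 at 6 h, then 82.1, 88.2 and 81.5 at 9 h and lastly 115, 135 and 126 at 12 h. Libraries at 6 and 9 h lay below every 0 h library of their own genotype, while those at 12 h overlapped them. In KO cells Ccnd2 fell, with a log2 change of -0.44 ± 0.09 at 6 h (adjusted p = 0.001909) and of -0.53 ± 0.09 at 9 h (adjusted p = 9.967e-05). In WT cells it fell, with a log2 change of -0.48 ± 0.09 at 6 h (adjusted p = 0.0009691) and -0.48 ± 0.09 at 9 h (adjusted p = 0.0005129). These 4 calls held without any single library and under every alternative tried. The authors' deposited tables list Ccnd2 in KO at 9 h (-0.53, adjusted p = 0.003908) but in neither KO at 6 h nor WT at 6 or 9 h. At 12 h the log2 change was -0.07 ± 0.09 in KO (adjusted p = 0.6694) and 0.09 ± 0.09 in WT (adjusted p = 0.5157).

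Ccnd1 (chr7:144929931-144939925, minus strand) had its lowest mean at 6 h in KO and at 9 h in WT. KO cells had 28.5, 38.6 and 35.3 CPM at 0 h, then 23.6, 28.9 and 25.4 at 3 h, then 23.1, 19.9 and 20.9 at 6 h, then 22.2, 22.4 and 26.0 at 9 h and lastly 46.6, 44.0 and 31.8 at 12 h. In WT cells there were 40.3, 44.9 and 38.6 CPM at 0 h, then 35.97, 38.9 and 41.03 at 3 h, then 29.3, 32.8 and 35.5 at 6 h, then 32.9, 27.9 and 30.1 at 9 h and lastly 41.2, 55.7 and 43.4 at 12 h. The KO libraries at 6 and 9 h and the WT libraries at 6 and 9 h all lay below those of their genotype at 0 h. Ccnd1 fell, with a log2 change of -0.69 ± 0.16 in KO at 6 h (adjusted p = 0.005261), a call that held without any single library and under every alternative tried. The fall in KO at 9 h was -0.55 ± 0.15 (adjusted p = 0.01485). It was lost without KO 0 h replicate 2 (0.124) or 3 (0.0587) or KO 9 h replicate 1 (0.06954) or 2 (0.06643), with no filter (0.08608) or with the groups fitted alone (0.06816). That in WT at 9 h was -0.45 ± 0.14 (adjusted p = 0.03638), lost without any 1 of 5 libraries (each at WT 0 h, and WT 9 h replicates 2 and 3), with 0.05206 to 0.1576, with no filter (0.3581) or by DESeq2 (0.07674). LTO1, on the opposite strand, overlaps Ccnd1 and had 1342 counts beside its 2579; the sources used here do not give whether the counting used the strand, so their reads cannot be told apart.

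Ccnd3, the remaining D-type cyclin, had 22.2, 13.0 and 14.05 CPM in KO cells at 9 h, against 30.5, 28.1 and 25.2 at 0 h, without overlap. It fell, with a log2 change of -0.75 ± 0.22 there (adjusted p = 0.02678). This call was lost without KO 0 h replicate 1 (0.09855) or 2 (0.08216) or KO 9 h replicate 2 (0.1537) or 3 (0.1184), with no filter (0.09499) or with the groups fitted alone (0.07385). In WT cells at 9 h it had 23.1, 29.8 and 21.3 CPM, against 26.5, 26.4 and 24.9 at 0 h, a log2 change of -0.07 ± 0.21 (adjusted p = 0.9058). At 3 and 6 h, with no call, it was -0.54 ± 0.23 (0.3993) and -0.61 ± 0.22 (0.1222) in WT. In KO it was -0.59 ± 0.22 (0.2883) and -0.39 ± 0.22 (0.3837) at those times. The test of the difference between genotypes over time gave an adjusted p of 0.5183. Bysl overlaps Ccnd3 on the opposite strand with 2121 counts beside 1639.

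The E-type cyclins, which with Cdk2 start S phase, were not called at any time. Ccne1 ran from 3.00 to 13.5 CPM and Ccne2 from 0 to 5.36 CPM with 5 libraries at 0; Ints8 overlaps Ccne2 on the opposite strand, with 1672 counts beside 159. E2f1, the founding member of the E2F family, had 8.49 to 22.2 CPM and was not called either.

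Cdk4 (chr10:127063534-127067920, plus strand) rose in KO cells at 12 h. KO cells had 34.0, 41.6 and 35.8 CPM at 0 h, then 52.2, 48.3 and 59.0 at 3 h, then 41.6, 47.8 and 42.6 at 6 h, then 40.7, 28.6 and 41.7 at 9 h and lastly 61.9, 55.5 and 48.9 at 12 h. WT cells had 56.5, 56.6 and 39.4 CPM at 0 h, then 51.3, 51.9 and 50.9 at 3 h, then 56.0, 56.4 and 57.5 at 6 h, then 42.9, 58.1 and 64.3 at 9 h and lastly 44.0, 48.0 and 37.3 at 12 h. The KO libraries at 3 h and at 12 h all lay above the KO libraries at 0 h, whereas WT libraries overlapped between 0 h and each later time. At 12 h Cdk4 rose by 0.57 ± 0.16 in KO (adjusted p = 0.0116), beside a log2 change of -0.23 ± 0.15 in WT (adjusted p = 0.3111). With KO 0 h replicate 1 or 3 left out the KO call was lost (0.0574 and 0.05154), as it was without KO 12 h replicate 1 (0.07126) or with no filter (0.05195). Tspan31 overlaps Cdk4 on the opposite strand, with 2533 counts beside 3698.

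Of the kinase inhibitors, Cdkn1b had 34.6, 25.7 and 33.5 CPM in KO cells at 9 h, against 24.5, 23.6 and 15.9 at 0 h, all of them higher. It rose by 0.55 ± 0.17 (adjusted p = 0.03758), a call lost without KO 0 h replicate 3 (0.2236) or KO 9 h replicate 1 (0.1507) or 3 (0.106), with no filter (0.1109), with the groups fitted alone (0.1245) or by DESeq2 (0.058). WT cells had 25.1, 30.8 and 27.4 CPM at 9 h, against 20.8, 20.1 and 23.2 at 0 h, a log2 change of 0.38 ± 0.17 (adjusted p = 0.1804).

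Cdkn1a (chr17:29090976-29100727, plus strand), the p53 target that encodes p21, had the most reads of the 41 genes, and its libraries scattered widely. KO cells had 214, 139 and 170.0 CPM at 0 h, then 141, 119.6 and 122 at 3 h, then 131, 154 and 247 at 6 h, then 102, 251.1 and 129.7 at 9 h and lastly 323, 177 and 288 at 12 h. WT cells had 307, 300 and 302 CPM at 0 h, then 276, 116 and 111 at 3 h, then 159.6, 147 and 172 at 6 h, then 236, 196 and 204 at 9 h and lastly 289.5, 145 and 157 at 12 h. The WT libraries at 0 h lay together above all other WT libraries, while at 3 and 12 h replicate 1 of WT stood far above its group. Within groups the coefficient of variation was 29.7%, and no comparison of Cdkn1a was called in the fit of all libraries.

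For Cdkn1a the call depended on how the spread was estimated. In WT cells its log2 change was -0.92 ± 0.36 at 6 h (adjusted p = 0.157), -0.52 ± 0.35 at 9 h (0.436) and -0.61 ± 0.35 at 12 h (0.2558) in edgeR's fit, and in KO cells 0.59 ± 0.36 at 12 h (0.3221). The authors' deposited tables list it at -0.94 at 6 h (adjusted p = 3.882e-15), -0.52 at 9 h (9.397e-05) and -0.62 at 12 h (0.04089) in WT, and at 0.59 at 12 h in KO (0.04947). With edgeR fitted to the 2 groups alone, the adjusted p was 0.0001429 at 6 h and 0.001835 at 9 h in WT. A gene on the opposite strand, AC167363.2, overlaps Cdkn1a and had 789 counts beside its 14933.

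Of the 10 replication genes 1, Pcna, was called after the conidia, and it fell at 12 h in both genotypes. Pcna (chr2:132249162-132253314, minus strand) had 73.1, 82.4 and 89.2 CPM in KO cells at 0 h, then 86.0, 84.3 and 83.6 at 3 h, then 74.5, 74.8 and 73.6 at 6 h, then 69.1, 76.0 and 75.2 at 9 h and lastly 65.8, 54.5 and 67.5 at 12 h. WT cells had 83.7, 74.3 and 89.6 CPM at 0 h, then 95.0, 87.6 and 84.5 at 3 h, then 71.3, 97.6 and 87.5 at 6 h, then 83.5, 74.6 and 71.5 at 9 h and lastly 62.6, 72.7 and 60.6 at 12 h. At 12 h every library lay below the 0 h libraries of its genotype. Pcna fell, with a log2 change of -0.39 ± 0.11 in KO at 12 h (adjusted p = 0.01151), a call lost without KO 0 h replicate 3 (0.06944) or KO 12 h replicate 2 (0.08531) or with the groups fitted alone (0.07124). In WT at 12 h it fell, with a log2 change of -0.34 ± 0.10 (adjusted p = 0.02295). That call was lost without WT 0 h replicate 1 (0.07111) or 3 (0.1176) or WT 12 h replicate 1 (0.07507) or 3 (0.09879), with no filter (0.06748), with the groups fitted alone (0.07079) or by DESeq2 (0.06055). The processed pseudogene Pcna-ps2 had 1689 counts beside the 5861 of Pcna, and how the authors' counting shared reads between the pair is not given.

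None of the 6 MCM genes and 3 genes of nucleotide supply (Tyms, Rrm1 and Rrm2) was called at any time against 0 h. Mcm3, the most abundant of the MCM genes per kb, had a mean of 24.4 ± 5.04 CPM in KO cells at 12 h and 26.9 ± 0.841 at 0 h, and 29.6 ± 2.40 in WT cells at 12 h and 26.5 ± 1.80 at 0 h (SD, n = 3 each). Rrm1, the large subunit of ribonucleotide reductase, averaged 24.2 ± 2.85 CPM in KO at 12 h and 21.9 ± 2.64 at 0 h, and 24.4 ± 0.501 in WT at 12 h and 18.3 ± 1.28 at 0 h. Over the 30 libraries the other genes lay at 4.62 to 18.0 CPM (Mcm2), 6.36 to 25.8 (Mcm4), 1.47 to 13.95 (Mcm5), 5.23 to 30.3 (Mcm6), 4.34 to 14.2 (Mcm7), 0 to 6.50 (Tyms) and 0 to 7.79 CPM (Rrm2). At 9 h the median log2 change of the 10 replication genes was -0.38 in KO, with 8 of 10 below 0, and 0.18 in WT, with 2 of 10 below 0, beside medians of -0.00 and 0.01 over all genes. Without WT 9 h replicate 1, 2 or 3 the WT median was 0.26, 0.16 or 0.10. These medians were not tested, and those at other times are not given.

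Summed over the 10 replication genes, KO cells had 194 to 211 CPM at 0 h, 216 to 239 at 3 h, 173 to 197 at 6 h, 172 to 178 at 9 h and 164 to 182 at 12 h. WT cells had 196 to 206 CPM at 0 h, 198 to 219 at 3 h, 195 to 216 at 6 h, 207 to 216 at 9 h and 185 to 203 at 12 h. From 9 h on the sums of the 2 genotypes did not overlap, with KO below WT; this sum is given with no test.

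**Figure D4:**
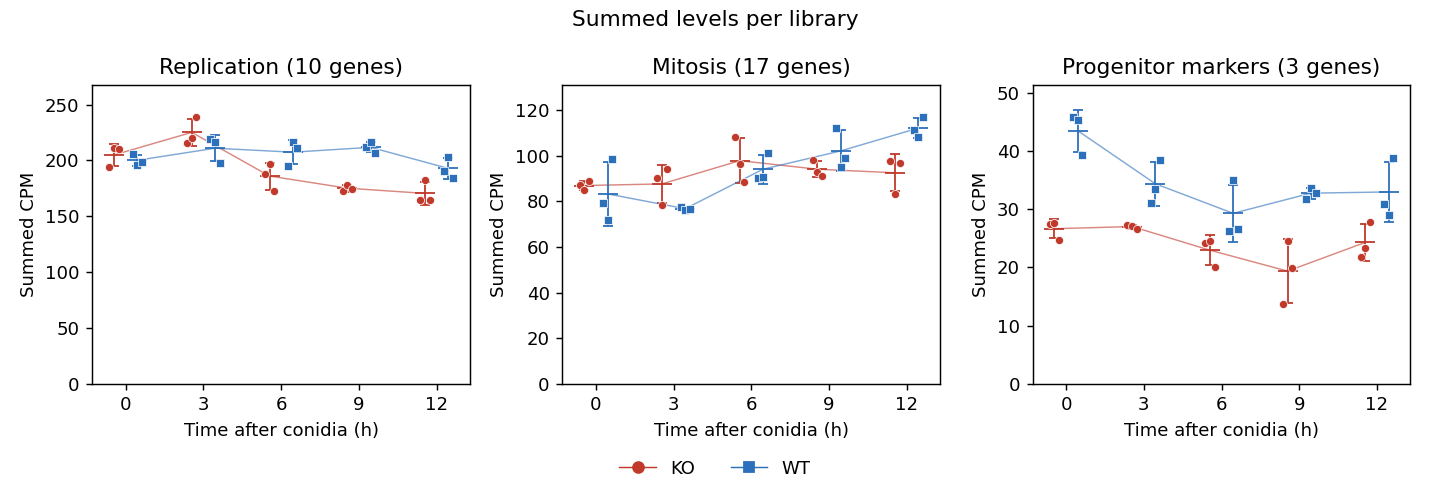
Summed CPM per library of the 10 replication genes, of the 17 mitosis genes and of 3 markers of early progenitors (Kit, Cd34 and Gata2) by hours after conidia, with KO as circles at the left and WT as squares at the right of each time, and with group means and SDs. The replication sum of KO falls below that of WT at 9 and 12 h, and the mitosis sum of WT is highest at 12 h. The sum of the progenitor markers is lower in KO at each time without overlap.

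Among mitosis genes, 2 rose in WT cells at 12 h and 1 in KO cells at 6 h. Cdk1 had 9.96, 12.7 and 13.1 CPM in WT at 12 h, against 7.06, 3.78 and 4.15 at 0 h, without overlap, and rose by 1.22 ± 0.40 (adjusted p = 0.03299). The call was lost without WT 0 h replicate 2 (0.1295) or 3 (0.1102) or WT 12 h replicate 2 (0.08476) or 3 (0.08132) or with no filter (0.08012). KO cells had 4.36, 4.46 and 6.85 CPM of Cdk1 at 12 h, against 8.01, 11.6 and 2.65 at 0 h, a log2 change of -0.55 ± 0.43 (adjusted p = 0.4698); the test of the difference between genotypes over time gave an adjusted p of 0.4751.

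Prc1, which bundles microtubules of the central spindle, had 9.13, 7.74 and 10.2 CPM in WT at 12 h, against 1.06, 0.839 and 6.64 at 0 h, where 2 of the 3 libraries were low. It rose by 1.68 ± 0.58 (adjusted p = 0.04376), lost without any 1 of 5 libraries (WT 0 h replicates 1 and 2, and each at WT 12 h), with 0.06232 to 0.193, with no filter (0.09556) or with the groups fitted alone (0.08332). Its level in KO cells was 10.5, 7.97 and 8.31 CPM at 12 h, against 5.51, 6.37 and 10.2 at 0 h. Cenpf, a kinetochore protein gene, had 12.7, 13.7 and 13.4 CPM in KO at 6 h, against 6.01, 3.75 and 5.74 at 0 h, and rose by 1.37 ± 0.34 (adjusted p = 0.01085), a call lost without KO 0 h replicate 2 (0.09031). WT cells had 5.94, 10.1 and 9.72 CPM of Cenpf at 6 h, against 7.77, 3.36 and 7.47 at 0 h, a log2 change of 0.45 ± 0.33 (adjusted p = 0.5706).

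The remaining mitosis genes were not called at any time against 0 h. Bub1b, the most abundant per kb, ran from 15.3 to 36.9 CPM over the 30 libraries, and the spindle assembly factor gene Tpx2 from 9.73 to 20.1 CPM. The other tested genes were low, at 0 to 6.52 CPM for the cyclin A2 gene Ccna2 (overlapped on the opposite strand by Exosc9, with 2434 counts beside 246), 0.41 to 6.14 for the cyclin B1 gene Ccnb1, 0 to 6.61 for the kinase gene Aurkb and 1.68 to 10.3 for the kinetochore motor gene Cenpe. Kif11 had 0 to 7.75 CPM, the microtubule binding gene Nusap1 1.34 to 6.63 CPM and Birc5 (survivin) 0 to 5.07 CPM. In KO cells at 12 h 9 of the 12 tested mitosis genes had a positive log2 change, with a median of 0.27, and in WT cells 11 of 12, with a median of 0.68. Over all genes the medians were -0.01 in KO and 0.00 in WT. Summed over all 17, the mitosis genes had 83.2 to 97.6 CPM in KO at 12 h, against 85.1 to 88.8 at 0 h, and 108 to 117 CPM in WT at 12 h, against 71.7 to 98.7 at 0 h.

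Between genotypes, Ccnd2 was higher and Ccnd1 lower in KO cells. At 0 h 1 of 36 genes was called (2.78%, against 5.02% of all genes), at 3 h 3 (8.33%, against 6.92%), at 6 h 2 (5.56%, against 5.78%) and at 9 h 2 (5.56%, against 5.06%). At 9 h 2 were called without WT 9 h replicate 1, 1 without replicate 2 and 0 without replicate 3, while calls over all genes went down to 517, 384 and 390, against 627 with all libraries. None was called at 12 h (1.9% of all genes), with 6 at an unadjusted p under 0.05 and none by DESeq2. Over all times 4 were called (11.1%, against 24.9% of all genes). The share of counts from small RNA genes moved with genotype too, at 3.07% to 4.28% in KO libraries and 5.48% to 6.80% in WT libraries from 0 to 9 h, but 3.82% to 4.01% in WT at 12 h. Leaving small RNA genes out left the count of the 36 genes called between genotypes as it was at each time. It lowered the count of interaction calls over all genes, as given further below. Because the share went with genotype from 0 to 9 h, its part in these results cannot be told apart from that of genotype and was not tested.

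Ccnd2 had a higher mean in KO than in WT cells at each time, and the libraries listed above for the 2 genotypes did not overlap at 0, 3, 6 and 9 h but did at 12 h. It averaged 158 ± 5.37 CPM in KO and 117 ± 11.7 CPM in WT at 0 h (SD, n = 3 each), a log2 change of 0.42 ± 0.09 (adjusted p = 0.003079). The difference was 0.34 ± 0.09 at 3 h (adjusted p = 0.01917), 0.46 ± 0.09 at 6 h (0.001936), 0.37 ± 0.09 at 9 h (0.01188) and 0.26 ± 0.09 at 12 h (0.1679). The call at 0 h held without any single library and under every alternative tried, and that at 6 h held without any library but was lost with no filter (0.05148). That at 3 h was lost without WT 3 h replicate 1 (0.06333) or 3 (0.1398) or KO 3 h replicate 2 (0.1085), with no filter (0.2186) or with the groups fitted alone (0.058). That at 9 h was lost without WT 9 h replicate 3 (0.05362) or KO 9 h replicate 2 (0.1016), with no filter (0.281) or with the groups fitted alone (0.0585). Over all times the log2 change was 0.37 ± 0.04 (adjusted p = 5.846e-08), called also with any of the 30 libraries left out.

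Ccnd1 was lower in KO. It averaged 26.0 ± 2.69 CPM in KO and 38.6 ± 2.54 CPM in WT at 3 h, and 21.3 ± 1.64 CPM in KO and 32.5 ± 3.12 CPM in WT at 6 h (SD, n = 3 each), with no overlap of the libraries at these times or at 9 h. The log2 change was -0.56 ± 0.15 at 3 h (adjusted p = 0.01644), lost without WT 3 h replicate 3 (0.07219) or KO 3 h replicate 1 (0.08238) or 3 (0.05645), with no filter (0.05569) or by DESeq2 (0.05035). It was -0.62 ± 0.16 at 6 h (adjusted p = 0.01553), lost without WT 6 h replicate 3 (0.07211) or KO 6 h replicate 2 (0.06911) or 3 (0.05752), with the groups fitted alone (0.06) or by DESeq2 (0.05869). At 0, 9 and 12 h it was -0.26 ± 0.14, -0.36 ± 0.15 and -0.19 ± 0.13 (adjusted p = 0.3434, 0.1716 and 0.6607). Over all times it was -0.40 ± 0.06 (adjusted p = 3.746e-05), called also with any of the 30 libraries left out. Ccnd3 was not called in any comparison of the genotypes. The part that the lower macrophage, granulocyte and progenitor markers of KO cultures have in these differences was not tested.

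**Figure D5:**
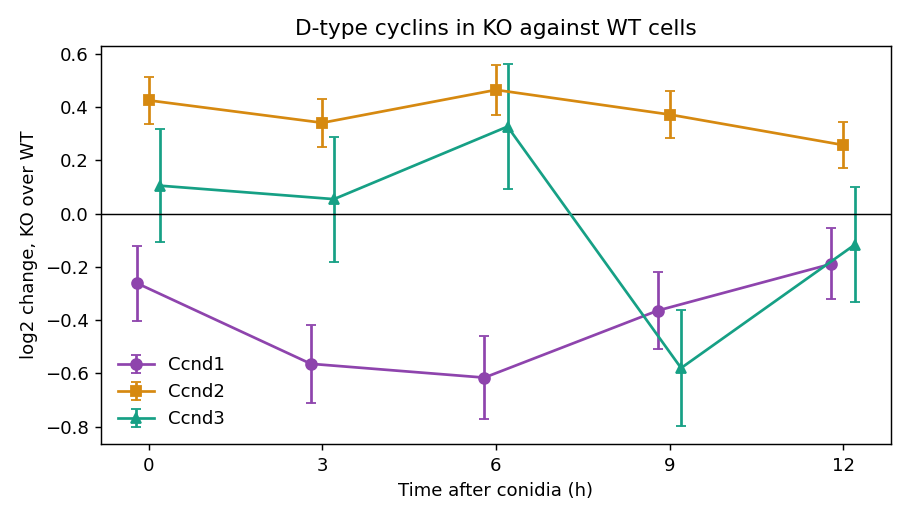
Fitted log2 change of the D-type cyclin genes in KO against WT cells by hours after conidia, with bars of 1 standard error. Ccnd2 is above 0 (higher in KO) and Ccnd1 below 0 (lower in KO) at every time, while Ccnd3 changes sides with wide errors.

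Cdk4 was lower in KO at 9 h, with 40.7, 28.6 and 41.7 CPM in KO and 42.9, 58.1 and 64.3 CPM in WT and no overlap. The log2 change was -0.58 ± 0.15 (adjusted p = 0.02052), lost without WT 9 h replicate 2 (0.09474) or 3 (0.1575) or KO 9 h replicate 2 (0.1791) or with the groups fitted alone (0.164). Over all times it was -0.20 ± 0.07 (adjusted p = 0.03478). The call was lost by DESeq2 (0.06337) and in 11 of 30 fits with 1 library left out (0.05014 to 0.06517). These were the fits without KO 0 h replicate 1 or 3, KO 6 h replicate 1 or 3, KO 9 h replicate 2, KO 12 h replicate 3, WT 0 h replicate 1 or 2, WT 9 h replicate 2 or 3 or WT 12 h replicate 2. At 12 h the KO libraries of Cdk4 lay above the WT libraries, with a log2 change of 0.36 ± 0.15 (adjusted p = 0.3179). Cdk2, the partner of cyclins E and A, had 14.3, 19.0 and 15.99 CPM in KO and 10.1, 7.03 and 9.39 CPM in WT at 3 h, a log2 change of 0.88 ± 0.23 (adjusted p = 0.01502). The call was lost without WT 3 h replicate 2 (0.08659) or KO 3 h replicate 2 (0.08722), with no filter (0.07107), with the groups fitted alone (0.05941) or by DESeq2 (0.05). Hmgb2, a DNA-bending chromatin protein gene, was lower in KO over all times, with a log2 change of -0.21 ± 0.07 (adjusted p = 0.0207), called also with any of the 30 libraries left out; DESeq2 did not call it (0.06991). Its levels were 17.4 to 32.0 CPM in KO and 22.7 to 33.6 CPM in WT.

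At 0 h Cdkn1a was at 214, 139 and 170.0 CPM in KO and 307, 300 and 302 CPM in WT, without overlap. The log2 change of -0.80 ± 0.36 was not called in the fit of all libraries (adjusted p = 0.2425) but was with the 2 groups fitted alone (0.03308). The authors' deposited table, which runs WT over KO, gives 0.80 for it (adjusted p = 5.462e-06).

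No replication gene differed between genotypes by the threshold. At 9 h all 10 had a lower fitted level in KO, with a median log2 change of -0.44, beside -0.00 over all genes. The 10 genes are not replicates, their signs were not tested, and their medians at other times are not given. Their summed levels, given above, overlapped between genotypes at 0, 3 and 6 h. Among the MCM genes the widest gaps at 9 h, picked after the values were seen, were those of Mcm5, with 3.42, 3.62 and 7.85 CPM in KO and 8.72, 13.95 and 9.92 CPM in WT (log2 change -1.15 ± 0.38, adjusted p = 0.07968), Mcm4, with 9.92, 8.68 and 9.09 CPM in KO and 14.1, 19.1 and 13.8 CPM in WT (-0.76 ± 0.29, 0.1444), and Mcm7, with 8.89, 4.34 and 8.26 CPM in KO and 12.4, 13.95 and 9.32 CPM in WT (-0.73 ± 0.25, 0.1014). Libraries of the 2 genotypes did not overlap for any of these 3 genes. Without WT 9 h replicate 1, 2 or 3 the median of the 10 genes was -0.47, -0.43 or -0.39, with 9 of 10 below 0 each time, and the 3 genes stayed uncalled. Cops6 and Ap4m1 overlap Mcm7 on the opposite strand with 3463 and 688 counts beside 781. Of the 12 tested mitosis genes none was called in any comparison of the genotypes, 6 had a lower and 6 a higher fitted level in KO at 9 h, and at 12 h 9 were lower, with a median of -0.32. Mki67 averaged 148 ± 17.8 CPM in KO and 149 ± 12.4 CPM in WT at 12 h, a log2 change of -0.01 ± 0.09 (adjusted p = 0.9957).

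Whether the change from 0 h differed between genotypes was tested for each gene over the 4 later times together. None of the 36 was called (0.888% of all genes were), with 6 at an unadjusted p under 0.05 and 1, Cdk4, by DESeq2. For Cdk4 the adjusted p was 0.06243, for Mcm5 0.1518, for Cdk2 0.1839 and for Mki67 0.8339.

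Other genes of the same pathways were read from 4 further lists. Of 28 further replication genes tested, in KO 2 rose at 6 h, 1 rose at 9 h and 1 fell at 12 h, and in WT 1 rose at each of 3, 6 and 9 h, while at 12 h 1 rose and 1 fell. These are 7.14%, 3.57% and 3.57% in KO at 6, 9 and 12 h, against 5.91%, 10.9% and 14.7% of all genes. In WT they are 3.57% at 3, 6 and 9 h and 7.14% at 12 h, against 1.02%, 5.96%, 10.4% and 18.1%. From 9 h on, the shares lay below those of all genes. Gins2, a subunit of the replicative helicase, had 13.9, 30.3 and 21.3 CPM in KO at 6 h, against 5.01, 8.24 and 4.86 at 0 h, and 5.09, 6.13 and 3.804 in WT at 6 h, against 7.06, 5.03 and 9.13 at 0 h. It was higher in KO than in WT at 6 h by 2.12 ± 0.34 (adjusted p = 0.0001473), and its change over time differed between genotypes (adjusted p = 0.04034). The maintenance DNA methyltransferase gene Dnmt1 rose in both genotypes at 9 h, by 0.46 ± 0.08 in KO (adjusted p = 0.0002344) and 0.44 ± 0.08 in WT (adjusted p = 0.000314). Of 28 further mitosis genes tested, KO had 1 that rose at 9 h and 2 that fell at 12 h, and WT 2 that rose at 6 h and 1 at each of 9 and 12 h. The gene at 12 h was Hmmr at 1.84 ± 0.47 (adjusted p = 0.006796). The shares were 3.57% and 7.14% in KO at 9 and 12 h, against 10.9% and 14.7% of all genes, and 7.14%, 3.57% and 3.57% in WT at 6, 9 and 12 h, against 5.96%, 10.4% and 18.1%. The mitotic transcription factor gene Foxm1 was lower in KO over all times, with a log2 change of -0.90 ± 0.23 (adjusted p = 0.004426). That comparison called 24.9% of all genes, and its count for the further mitosis genes is not given here.

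Of 23 further regulators, 5 rose and 1 fell in KO at 12 h (26.1%, against 14.7% of all genes) and 6 rose and 2 fell in WT (34.8%, against 18.1%). At 9 h the shares were 8.7% in KO and 13% in WT, against 10.9% and 10.4% of all genes. Myc, the growth-promoting transcription factor, had 22.7, 20.7 and 23.5 CPM in KO at 12 h, against 29.0, 46.5 and 47.7 at 0 h, and 27.4, 21.7 and 27.0 in WT at 12 h, against 71.7, 52.0 and 57.7 at 0 h. It fell, with a log2 change of -0.90 ± 0.17 in KO (adjusted p = 0.0004056) and -1.26 ± 0.16 in WT (adjusted p = 1.149e-06). Mxd1, which competes with Myc for Max, rose by 1.501 ± 0.20 in KO (adjusted p = 2.676e-06) and 0.95 ± 0.18 in WT (adjusted p = 0.0005013). The antiproliferative gene Btg2 rose by 0.75 ± 0.10 in KO (adjusted p = 5.858e-06) and 0.79 ± 0.10 in WT (adjusted p = 1.855e-06), and Ccng2, an unconventional cyclin gene linked to arrest, by 0.78 ± 0.24 in KO (adjusted p = 0.02431) and 1.09 ± 0.25 in WT (adjusted p = 0.002358). Cdk6, a kinase partner of D-type cyclins, rose by 0.29 ± 0.08 in KO (adjusted p = 0.01262) and 0.30 ± 0.08 in WT (0.008173). The remaining calls at 12 h were Btg1, higher in both genotypes, and in WT Rb1, higher, and E2f4, lower.

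Targets of p53, the factor that also drives Cdkn1a, had the largest share of calls of the 4 lists at 12 h. Of 17 tested, 6 rose and 1 fell in KO at 12 h (41.2%) and 7 rose in WT (41.2%), read against 14.7% and 18.1% of all genes. Mdm2, the ubiquitin ligase that degrades p53, had 462, 425 and 423 CPM in KO at 12 h, against 176, 180.3 and 167 at 0 h, and rose by 1.32 ± 0.14 (adjusted p = 1.047e-07). In WT it had 630.2, 429 and 450.4 CPM at 12 h, against 178, 159 and 152 at 0 h, and rose by 1.63 ± 0.14 (adjusted p = 2.834e-09). Gadd45a, a stress-induced growth arrest gene, rose by 1.76 ± 0.18 in KO (adjusted p = 5.225e-08) and 1.47 ± 0.18 in WT (adjusted p = 9.117e-07). The stress cytokine gene Gdf15 rose by 5.13 ± 0.41 in KO (adjusted p = 2.972e-10) and 3.65 ± 0.35 in WT (adjusted p = 8.818e-09). Several of these targets also respond to other stresses. The target that fell in KO was Sesn1, with a log2 change of -0.91 ± 0.24 (adjusted p = 0.01026). Bax, Phlda3, Aen, Zmat3, Ccng1, Trp53inp1, Sesn2, Bbc3 and Tnfrsf10b were called in neither genotype at 12 h. Cdkn1a, on the same pathway, was at 263 ± 76.2 CPM in KO at 12 h and 174 ± 37.7 at 0 h, and at 197 ± 80.2 CPM in WT at 12 h and 303 ± 3.60 at 0 h (SD, n = 3 each).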

How the data were processed

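RNA of 30 samples (10 groups of 3) was sequenced from stranded, poly(A)-selected libraries. The deposited table holds read counts per gene, not normalized. Per the submitters' processing notes, tools named are Trimmomatic 0.35, HISAT2, StringTie and DESeq2, and the build is GRCm38; whether counting used the strand is not stated in them. The authors' deposited comparison tables hold log2 fold changes, adjusted p-values and normalized counts per library (a signal, not used for tests), and list only genes with an adjusted p-value under 0.05.

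The main fit was edgeR 4.0.16 (R 4.3.3): TMM scaling, filterByExpr with a minimum count of 10, 1 coefficient per group over all 30 libraries, a robust quasi-likelihood F test, and Benjamini-Hochberg adjustment over the 12393 genes kept, which hold 98.662% of counts. CPM are counts per 1000000 of the TMM-scaled total. The interaction was an F test of 4 differences. Standard errors are the log2 change divided by the root of F. Fits were tested on simulated data. Library totals of 1722384 to 3509429 counts limit the precision of genes with few reads. Same-numbered samples of a genotype correlated by -0.062 to 0.0747 (median 0.00908) in their deviations from group means. Other-numbered samples of a genotype correlated by -0.1 to 0.102 (median -0.00264). No pairing by number was seen, but noise of genes with few counts could hide a weak one. Alternatives were DESeq2 1.42.0, its size factors, no filter, the compared groups fitted alone, a replicate block, each library left out, and small RNA genes left out, the last chosen after seeing the data.

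The genes, lists and tests were chosen with earlier results of these data known. Genes of the 41 were named with values in a comparison where called, or as the most abundant of their role; of other lists at most 4 called genes with the largest change per comparison were named, and any gene outside this rule was chosen after its values were seen. Motifs were counted in RefSeq windows.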

Additional observations from a re-analysis of the deposited data

Results flagged for a closer look

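Aurkb, the kinase gene of the chromosomal passenger complex, had fitted changes of opposite sign in the 2 genotypes at 9 h, neither of them called. The log2 change against 0 h was -0.95 ± 0.54 in KO (adjusted p = 0.3188) and 0.86 ± 0.49 in WT (adjusted p = 0.3232). Aurkb averaged 2.31 CPM in KO cells at 9 h, against 4.47 CPM at 0 h, and 6.16 CPM in WT cells at 9 h, against 3.36 CPM at 0 h (n = 3 each). Every KO library at 9 h was below every KO library at 0 h, and every WT library at 9 h was above every WT library at 0 h. Taken from the group means of CPM and not from the fit, the change in KO over the change in WT was -1.82 on the log2 scale. The fitted change of Aurkb in KO was also below 0 at 3 h (-1.10 ± 0.55, adjusted p = 0.5497) and 12 h (-1.03 ± 0.55, 0.2427). Over the 4 later times together, edgeR's test of the difference between genotypes gave an adjusted p of 0.6676; the difference at 9 h alone was not tested. Aurkb had 277 counts over all 30 libraries. The WT 9 h libraries stood apart from each other, and the values of Aurkb are not given without each of them.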

How the results depend on the processing

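Counts of the 41 genes called moved beyond 1.5 times under these settings. With no filter on low counts WT 12 h had 1 call (main 5), KO 9 h 2 (main 5), and KO against WT 0 at 3 h (main 3), 1 at 6 h (main 2) and 1 at 9 h (main 2). With the compared groups fitted alone WT 6 h had 2 (main 1), KO 9 h 2, and KO against WT 2 at 0 h (main 1), 1 at 3 h, 1 at 6 h and 0 at 9 h. DESeq2 gave 1 at 3 h, 1 at 6 h and 2 over all times (main 4) for KO against WT, and 1 for the interaction (main 0). The genes lost are named beside each result. With a library left out, calls ranged from 0 to 0 in KO 3 h and WT 3 h, 2 to 4 in KO 6 h, 1 to 2 in WT 6 h, 3 to 4 in KO 9 h, 2 to 2 in WT 9 h, 1 to 5 in KO 12 h and 1 to 3 in WT 12 h. For KO against WT they ranged from 1 to 3 at 0 h, 1 to 2 at 3 h, 1 to 2 at 6 h, 0 to 3 at 9 h, 0 to 1 at 12 h, 3 to 5 over all times and 0 to 1 for the interaction. DESeq2's size factors, and leaving out small RNA genes (added after seeing the data), each gave 4 calls in KO 12 h (main 3, adding Cenpf) and otherwise equal counts. The replicate block gave the same number of calls in every comparison, for instance 5 in KO 9 h and 4 in KO against WT over all times. No gene called changed sign under any of these settings. Fits of the groups alone were not run for the tests over all times or the interaction, and genes of other lists were not followed. Over all genes, no filter gave 60 (main 151), 456 (733), 741 (1346) and 1187 (1823) calls in KO at 3, 6, 9 and 12 h, 58 (126), 367 (739), 743 (1286) and 1486 (2245) in WT, 321 (622), 451 (857), 451 (716), 407 (627) and 109 (236) for KO against WT from 0 to 12 h, and 51 (110) for the interaction. The groups fitted alone gave 46, 396 and 841 in KO at 3, 6 and 9 h, 58 in WT at 3 h, and 396, 485, 418, 276 and 91 for KO against WT from 0 to 12 h. Leaving out small RNA genes gave 52 for the interaction. Depth limits the mitosis genes most: 5 of the 17 did not pass the filter on low counts.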

Other observations

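Between genotypes over all times, 3 of 23 further regulators were higher and 3 lower in KO (26.1%, close to the 24.9% of all genes). Myc had a log2 change of -0.39 ± 0.08 (edgeR's quasi-likelihood test, adjusted p = 0.000296), with every KO library below every WT library at 0, 3, 6 and 9 h but not at 12 h. The antiproliferative gene Btg1 was higher in KO, with 0.34 ± 0.02 (adjusted p = 1.487e-12). Of the p53 targets Plk2, a kinase gene induced by stress, differed between genotypes in its change over time (adjusted p = 0.002118).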
